A study of Mus musculus with 2 samples.

Results

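Ribosomal protein genes were examined in mouse bone marrow progenitors grown with or without nuclear Hoxa9. The group held the 79 of 23235 rows of the deposited table whose gene name follows the Rpl or Rps pattern, without pseudogenes and without the Rps6k kinases. It comprised 31 genes of the small (40S) subunit and 48 of the large (60S) subunit. Names alone chose the genes, and no expression value was used. Ribosomal protein genes named otherwise, such as Rpsa and Fau, lay outside the pattern and are given separately.

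Lineage-depleted marrow of C57B6 mice carried 2 MIGR1 retroviruses, one for HA-tagged Hoxa9-ER, a fusion of the homeobox factor Hoxa9 with a hormone-binding domain, and one for Flag-tagged Meis1, its homeobox partner. Both groups carried both viruses and were cultured with the cytokine IL3. Cells transformed in 4-hydroxytamoxifen were washed and then kept for 72 h either in 100 nM of the drug, which holds the fusion in the nucleus (group 4OHT), or in ethanol, its solvent, so that nuclear Hoxa9-ER was lost (group EtOH). The comparison asks what follows the withdrawal of nuclear Hoxa9 from transformed cells; the viral promoter drives both factors, and cells that respond differently are averaged in each culture.

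Each condition was 1 sample made of 2 biological replicates, with 1 FPKM value per gene, so no value below carries a replicate error. FPKM, the fragments of a transcript scaled to its length and to the mapped fragments, compares levels per length. Changes are log2((EtOH + 1)/(4OHT + 1)), positive when EtOH was higher, which understates the change of low genes. "Rose" and "fell" are used only of genes called in the authors' deposited table, that is, whose q-value there did not exceed 0.05. FPKM sums were 544802 in 4OHT and 591496 in EtOH, and rows that were called and at least 2-fold higher went from 2.45% to 11.5% of the sum. All 6 late neutrophil markers rose (summed level 125 FPKM in 4OHT and 16226 in EtOH), as did all 3 eosinophil markers (126 and 4667) and all 4 basophil and mast cell markers (712 and 3202). Of 6 progenitor markers 4 fell (sum 485 and 243); Kit, a defining one, was at 7.39 and 10.1 FPKM and was not called. Of 4 B cell and 4 T cell markers none reached 1 FPKM, and Ebf1, Ms4a1, Cd3e, Cd3g and Cd4 were listed at 0 in both conditions. The part of these cell differences in the values below was not tested, and in bulk samples fewer cells of a type and less RNA per cell cannot be told apart.

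The cytoplasmic ribosome reads messenger RNA on its small subunit and joins amino acids on its large subunit, and each ribosomal protein is normally present once per ribosome, apart from the paired P1 and P2 proteins of the stalk. Cells coordinate these proteins largely by translation: their messengers begin with a cytosine and a run of pyrimidines, the terminal oligopyrimidine (TOP) start, through which the growth kinase mTOR and the binding protein Larp1 control their use. Inherited loss of 1 copy of several of these genes causes Diamond-Blackfan anaemia, a failure of red cell production in the marrow.

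The TOP start is the sequence feature that the name pattern did not use. In RefSeq start windows (GRCm38.p6, 250 bases before and 50 from the listed start on), 59 of the 79 genes had at least 1 window. A C followed by at least 4 pyrimidines began the listed transcript in 13 of 70 windows (18.6%), against 2.51% of all 32851 windows. The windows below show 25 bases before the start and the first 15 transcribed bases, with the pyrimidine run in capitals. The first 6 have the run at the listed start, and the last 3, the stalk base Rplp0, the very short Rpl41 and the muscle paralogue Rpl3l, have none there.

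Rps6 (chr4:86857353-86857392, minus strand): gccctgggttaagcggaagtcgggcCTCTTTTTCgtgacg
Rpl28 (chr7:4792940-4792979, plus strand): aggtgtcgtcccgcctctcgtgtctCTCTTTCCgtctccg
Rpl38 (chr11:114668555-114668594, plus strand): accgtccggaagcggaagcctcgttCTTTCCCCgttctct
Rps18 (chr17:33955651-33955690, minus strand): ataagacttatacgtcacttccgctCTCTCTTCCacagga
Rpl35 (chr2:39005117-39005156, minus strand): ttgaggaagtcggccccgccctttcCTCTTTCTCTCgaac
Rplp2 (chr7:141447626-141447665, plus strand): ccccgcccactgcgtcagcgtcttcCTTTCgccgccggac
Rplp0 (chr5:115559442-115559481, plus strand): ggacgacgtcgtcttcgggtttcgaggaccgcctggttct
Rpl41 (chr10:128549154-128549193, minus strand): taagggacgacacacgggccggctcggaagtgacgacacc
Rpl3l (chr17:24727801-24727840, plus strand): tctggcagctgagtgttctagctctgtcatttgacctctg

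A listed start can lie some bases from the one used in these cells. A run that began within 5 bases of the listed start, a measure added after the first was seen, was present in 40% of the genes' windows and 18.3% of all windows. The 13 genes with the run at the listed start had a median log2 change of 0.09, and the 44 measured genes without it had 0.07. Words were also counted on both strands of the 300-base windows. CCGGAA, the core of ETS factor sites, was in 47.1% of the genes' windows and 14.9% of all, and GGGCGG, a GC box, in 57.1% and 35.7%. AAGATGGC, a YY1 word, was in 10% and 2.75%, while the E-box CACGTG was in 8.57% and 7.15%, and TATAAA in 8.57% and 13.6%. The ETS and YY1 words can overlap in their letters and were counted independently. A match is a description of the window only.

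Ribosomal protein RNAs were among the most abundant of the culture and differed little between the conditions. In 4OHT 59 of the 100 highest rows were ribosomal protein genes. Their FPKM sum was 124891 in 4OHT and 132514 in EtOH, which was 22.9% and 22.4% of all FPKM. Without the rows that were called and at least 2-fold higher, the shares were 23.5% and 25.3%. Those rows were picked for being higher in EtOH, so leaving them out had to raise the EtOH share more. The second pair of shares is therefore no sign of a gain by the ribosomal protein genes. For the 77 genes that reached 1 FPKM in a condition the median was 1656 FPKM in 4OHT and 1701 in EtOH, with quartiles of 1077 and 2213 in 4OHT. The 40S genes held 9.90% of all FPKM in 4OHT and 9.64% in EtOH, and the 60S genes 13.0% and 12.8%.

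**Figure D1:**
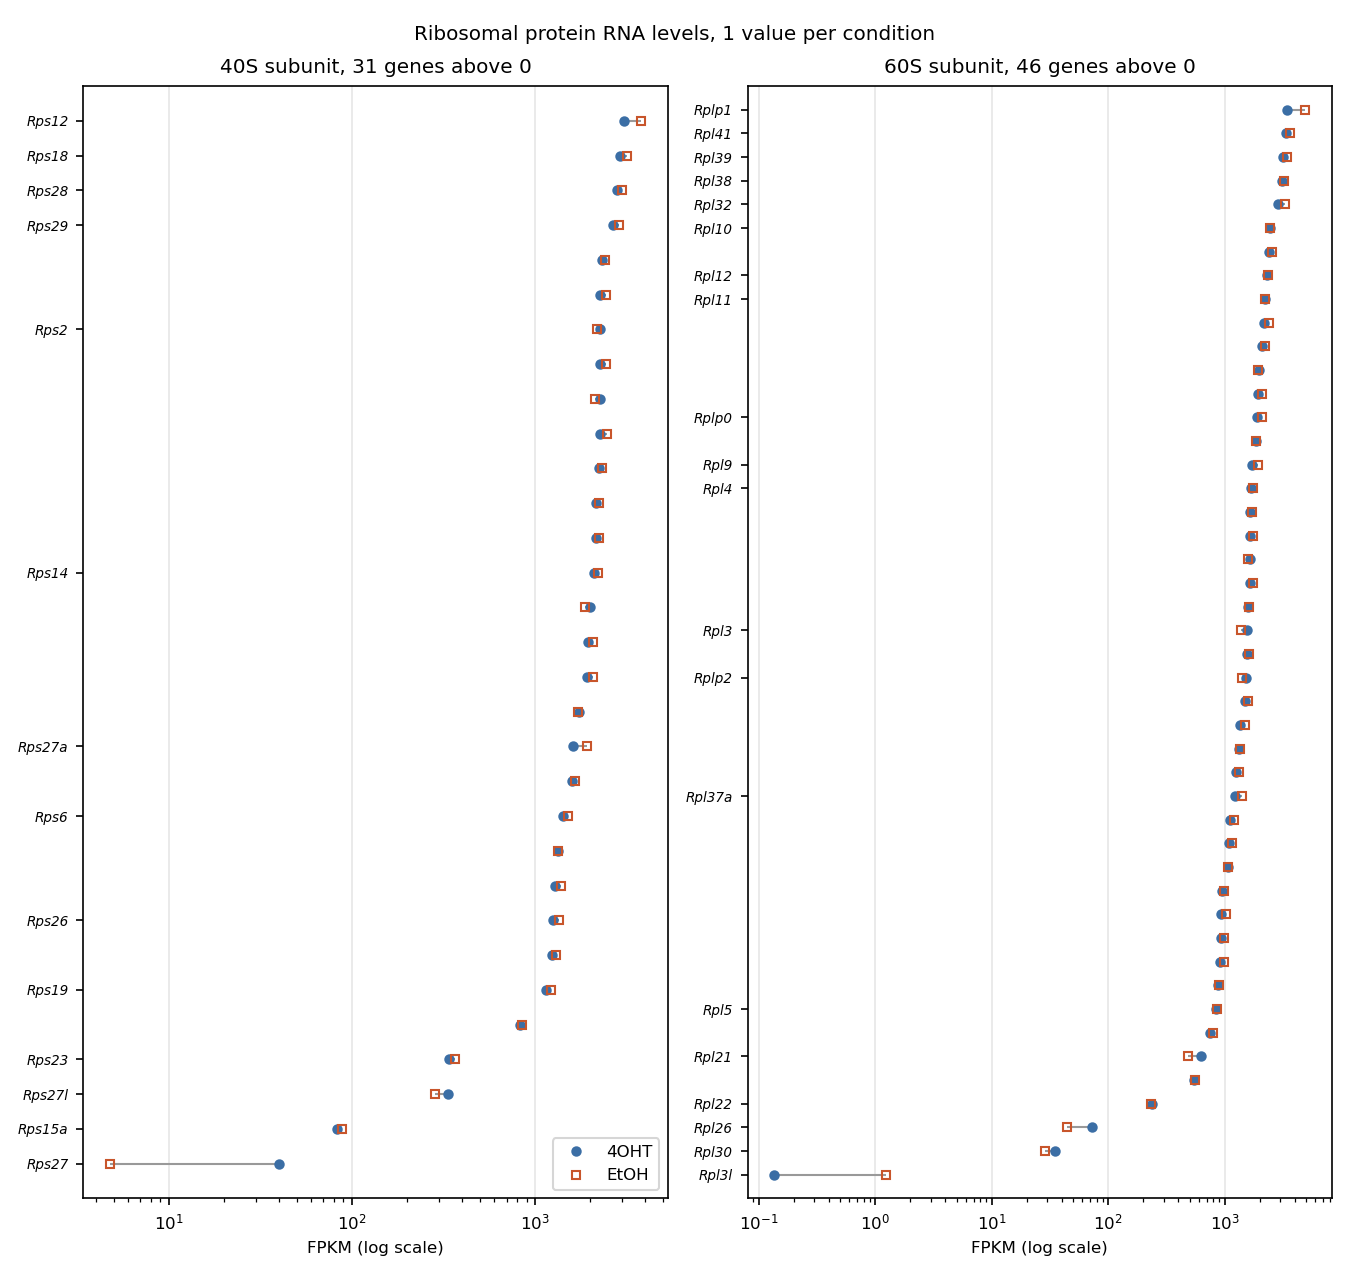
FPKM (log scale) of each ribosomal protein gene above 0 in 4OHT (filled circles) and EtOH (open squares), 40S genes at left and 60S genes at right, ordered by the 4OHT level, 1 value per condition, with names for some genes. Of the 77 genes drawn, 68 lie at 500 FPKM or more in both conditions, with close pairs; Rps27 and Rpl3l, both at low levels, are the widest pairs.

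Of the 77 genes that the authors tested, 2 were called, both higher in EtOH, and 0 fell. Among all 11865 tested rows, 22.5% were called, 12% higher and 10.5% lower, so the genes' 2.60% was below the table's share. By the authors' q of at most 0.01 the count was 0, against 16.1% of the table. With an added ratio of at least 1.5 it was 1, Rpl3l, against 17.1%. At an unadjusted p of at most 0.05 it was 3, with Rpl21 the third, against 31.5%.

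The changes were narrow. Their median log2 change was 0.07 and the quartiles were 0.02 and 0.11. Over all 11022 rows with 1 FPKM or more the median was -0.06 and the quartiles were -0.25 and 0.18. Of the 77 genes 67, or 87.0%, lay within 0.2 of zero, against 45.8% of all rows. Of the 79 other rows at 500 FPKM or more in both conditions, which are closer to them in level, 44.3% lay within 0.2. The authors' deposited table called 15 of the 76 tested rows among them, the smallest called change being 0.37, in the myosin light chain gene Myl6. Changes of the size of most ribosomal protein genes were thus below any that was called at such levels, which does not show that the genes did not change.

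The direction of the small shift depended on the scaling. As deposited, 61 of the 77 genes were higher in EtOH, but once both FPKM sums were made equal 79.2% were lower and the median was -0.045. That scaling moved the median of all rows by -0.10. Relative to the median of all rows, the genes' median stood 0.13 higher as deposited and 0.12 higher after that scaling. With sums made equal without the called rows at least 2-fold higher, the genes' median was 0.10 and 15.6% were lower. With the median ratio of rows of at least 5 FPKM set to 1, it was 0.14 and 14.3% were lower. No general rise or fall of the group can be read from these values alone.

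**Figure D2:**
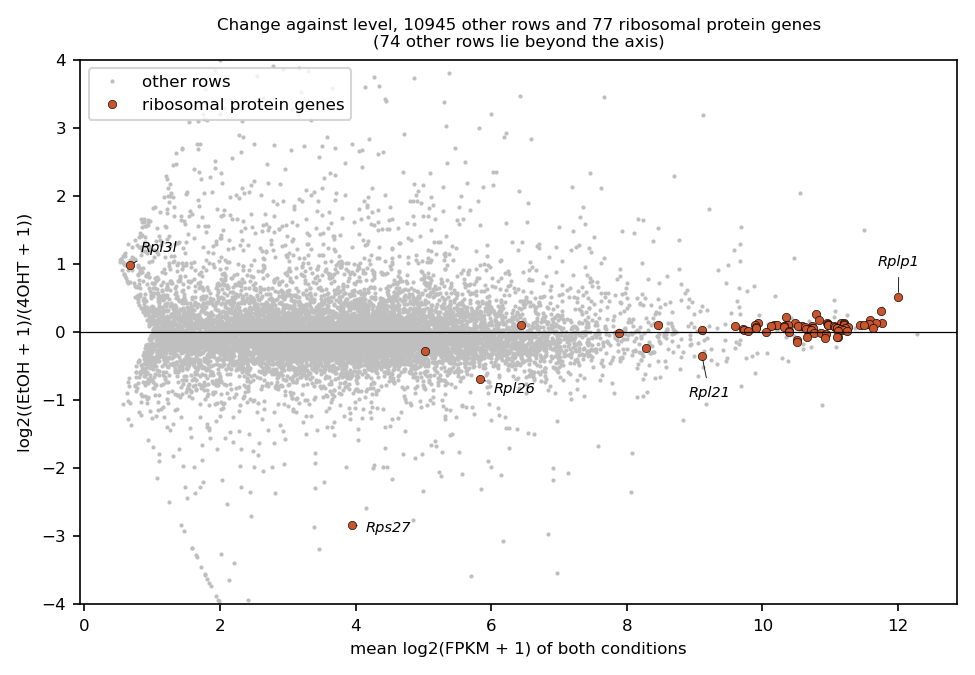
Log2 change (vertical axis) against the mean log2(FPKM + 1) of both conditions (horizontal axis) for 77 ribosomal protein genes (coloured) and 10945 other rows with 1 FPKM or more (grey), with 74 other rows beyond the axis. The ribosomal protein genes form a tight band at the right, with Rplp1 above it and Rpl21 below it. As deposited the band lies mostly above 0, and with equal FPKM sums mostly below.

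In the 60S subunit, the only abundant gene called was Rplp1, which encodes an acidic protein of the stalk. The stalk recruits the elongation factors; Rplp0 is its base on the ribosomal RNA, Rpl12 sits beside it, and Rplp1 and Rplp2 pair as heterodimers on Rplp0. Rplp1 (chromosome 9, 61761090 to 61762317, mm9) was at 3429 FPKM in 4OHT and 4919 in EtOH. It rose by a log2 change of 0.52 (the authors' deposited table lists q = 0.0164) and was the highest ribosomal protein gene in both conditions. Its partner Rplp2 went from 1523 to 1405 FPKM, a change of -0.12, and Rplp0 from 1894 to 2083, a change of 0.14. Rpl12 was at 2303 and 2341 FPKM. For Rplp2, Rplp0 and Rpl12 the authors' deposited table lists q = 0.656, 0.741 and 0.960. The level of Rplp1 over that of Rplp2 was therefore 2.25 in 4OHT and 3.50 in EtOH, a difference between the pair that was not tested itself. With equal FPKM sums Rplp1 remained higher, at 0.40. Of the 50-base words of Rplp1, 60% also occur in transcripts of 5 other genes, 4 of them pseudogenes, and the part of shared reads in its value was not tested.

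**Figure D3:**
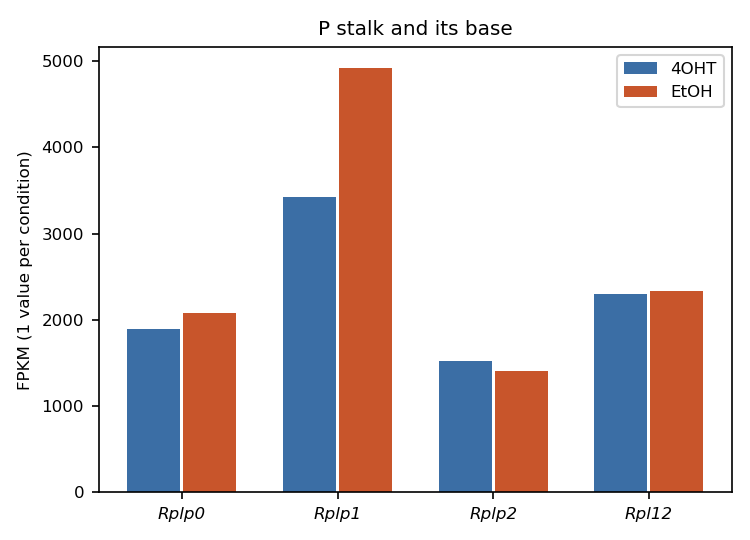
FPKM of the stalk genes Rplp0, Rplp1 and Rplp2 and of Rpl12 in 4OHT and EtOH (bars, 1 value per condition, no error available). Rplp1 stands at 3429 and 4919 FPKM, while the others differ by less between the conditions.

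The other 60S genes were called in no case apart from Rpl3l. Over the 8 proteins that line the polypeptide exit tunnel or its rim, 0 were called, against 2.60% of the group and 22.5% of all tested rows. Their median change was 0.07. Rpl39, a small protein of the tunnel wall, was at 3128 and 3421 FPKM, and Rpl4, whose loop reaches into the tunnel, at 1682 and 1749. Rpl5 and Rpl11 carry the 5S RNA into the large subunit and, when free, bind the p53 regulator Mdm2. Rpl5 was at 841 and 861 FPKM (0.03) and Rpl11 at 2213 and 2235 (0.01), both below the group's median change as deposited. With equal FPKM sums they were at -0.08 and -0.10, both further from zero than the group's median of -0.045. Rpl22, an RNA-binding protein of the subunit surface, was at 238 and 235 FPKM. Rpl41, one of the shortest proteins known, was second in level in 4OHT, at 3332 FPKM, and was at 3649 in EtOH. Rpl38, next but one in level, was at 3105 and 3241 FPKM. Rpl37a (1213 and 1410 FPKM, 0.22), Rpl32 (2875 and 3262, 0.18) and Rpl9 (1716 and 1934, 0.17) had the largest positive changes of the 60S genes that were not called, and their values remained above those of 4OHT with equal FPKM sums. The ubiquitous Rpl8 (1658 and 1578 FPKM, -0.07), Rpl35 (1971 and 1936, -0.025) and Rpl36 (1871 and 1852, -0.01) were among the 10 of 46 that were lower as deposited.

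Rpl21 lay closest to the threshold from outside. It was at 624 FPKM in 4OHT and 487 in EtOH, a change of -0.36, for which the authors' deposited table lists an unadjusted p of 0.0233 and q = 0.0886. No gene above 100 FPKM in both conditions had a lower change. Rpl21 shares 26.2% of its words with 82 other genes, of which 81 are pseudogenes. Just inside the threshold was Rpl3l, at q = 0.0497 in the authors' deposited table.

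In the 40S subunit 0 of 31 tested genes were called, against 22.5% of all tested rows. The median change was 0.09, against 0.07 for the 60S genes. Rps12, a protein of the beak, was at 3085 FPKM in 4OHT and 3805 in EtOH (0.30), listed at q = 0.232 in the authors' deposited table. Rps27a, made as a fusion with ubiquitin and then cut from it, was at 1610 and 1936 FPKM (0.27), listed at q = 0.289 in the authors' deposited table. These were the largest positive changes of the subunit, and neither passed. Among the 13 proteins of the head and beak the median was 0.10, and 12 of 13 were higher in EtOH as deposited. Rps6, the phosphorylation target of the S6 kinases, was at 1432 and 1520 FPKM (0.09). It became -0.03 with equal FPKM sums, as did other deposited changes of this size. Rps18, Rps28 and Rps29, at 2921, 2802 and 2677 FPKM in 4OHT, followed Rps12 in level and stood at 3183, 2996 and 2865 in EtOH. Rps2, at the entry of the messenger channel, was at 2278 and 2172 FPKM (-0.07), lower in EtOH as deposited. Rps15a and Rps23 were lower in level than most 40S genes, at 82.6 and 340 FPKM in 4OHT, with differences of 0.10 each.

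Of the 19 Diamond-Blackfan anaemia genes listed, 0 were called. The share called was 2.60% in the whole group and 22.5% over all tested rows, so this count does not set them apart from the group. Their median change was 0.04. Rps19, the gene mutated most often in that disease, was at 1144 and 1229 FPKM (0.10). Rps14, whose loss of 1 copy underlies the anaemia of the 5q deletion syndrome, was at 2099 and 2212 FPKM (0.08). The list includes Rps27 and Rpl26, whose rows were incomplete as described next.

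Of the 4 most negative values of the group 3 came from rows that hold a small part of their locus, the other being Rpl21. Rps27 was listed at 40.2 FPKM in 4OHT and 4.76 in EtOH, a change of -2.84, listed at q = 0.581 in the authors' deposited table. The same locus (chromosome 3, 90016589 to 90017570, mm9) carried a joint row, Gm9846 with Rps27, at 2769 and 3045 FPKM. Summed, the locus stood at 2809 and 3050 FPKM, a change of 0.12. Rpl26 was listed at 72.0 and 44 FPKM (-0.70), and the row Gm15772 at its locus at 2364 and 2529; the sum differed by 0.08. Rpl30 was listed at 34.7 and 28.5 FPKM (-0.27), beside Gm12191 at 1721 and 1932, with a sum change of 0.16. The rows named for the genes thus held between 0.156% and 2.96% of their locus. Rpl34 had the same form, but with no row of its own name: the joint row stood at 32.3 FPKM in 4OHT, and Rpl34-ps1 at 2220 and 2479 FPKM in 4OHT and EtOH, with a sum change of 0.15. The summed values have no test, and in the authors' deposited table the joint Rps27 row and Gm15772 are marked LOWDATA, that is, they were not tested.

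**Figure D4:**
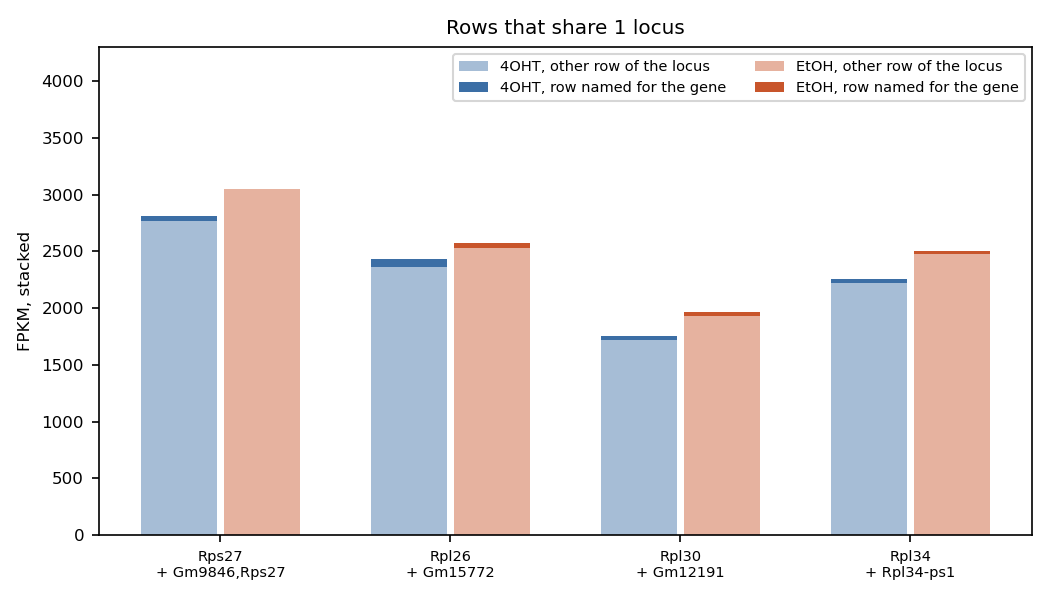
Stacked FPKM of the rows that share the loci of Rps27, Rpl26, Rpl30 and Rpl34 in 4OHT and EtOH (bars, 1 value per condition). The row named for the gene (dark) is a thin cap on the other row of the locus (light); as deposited the summed height is slightly greater in EtOH, and with equal FPKM sums it is not greater in every locus.

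Sequence shared with other transcripts was the rule. Of the 79 genes, 70 shared over 10% of their 50-base words with transcripts of other genes and 36 shared over 50%, with a median of 48.5%. Rpl7a shared its words with 120 other genes, Rpl29 and Rpl21 with 82 each, and Rps2 with 71. Most of these were pseudogenes (118, 77, 81 and 68). The counts take in any other gene, however, and pseudogenes were only 3 of 39 for Rpl23 and 6 of 58 for Rps16. Rpl3l shared none. Among the 7 measured genes that shared at most 10%, the median change was 0.10, beside 0.08 for 34 genes up to 50% and 0.07 for 36 above it. Rpl3l, which reached the 1 FPKM filter only through EtOH, is 1 of the 7, and without it the median of the other 6 was 0.07. No source used here states the treatment of reads with several matches.

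The paralogues Rpl3l, Rpl10l and Rpl39l were low or at 0. Rpl3l replaces Rpl3 in heart and skeletal muscle. It was at 0.136 FPKM in 4OHT and 1.24 in EtOH and rose, by 0.98 with a pseudocount of 1, 2.51 with 0.1 and 0.28 with 5. It passed the filter only through EtOH, so its place among the measured genes was bound to a difference. From the smallest repeated FPKM step of odorant receptor rows in 4OHT, a rough estimate is 7.8 fragments behind the 4OHT value; the step was not repeated in EtOH, and no estimate is given there. Its parent Rpl3 was at 1541 and 1387 FPKM (-0.15). The start of Rpl3l lies 5901 bases past the end of Rps2, itself at 2278 and 2172 FPKM; a part of that neighbour in the Rpl3l value was not tested. Rpl10l and Rpl39l, retrocopies expressed in testis, were listed at 0 in both conditions and were not tested. Their parents Rpl10 and Rpl39 were at 2425 and 3128 FPKM in 4OHT. Rps27l, a p53-responsive paralogue of Rps27, was well above these, at 335 FPKM in 4OHT and 285 in EtOH (-0.23). It did not pass.

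Ribosomal protein genes outside the name pattern were not called either. Fau, which encodes a ubiquitin-like fusion of Rps30, was at 1929 and 2391 FPKM (0.31). Rpsa, a 40S protein, was at 1270 and 1463 FPKM (0.20), and Gnb2l1, now named Rack1, at 1490 and 1528 (0.04). The paralogues Rpl22l1, Rpl36al and Rpl7l1 differed by 0.0015, -0.01 and -0.14. Rps19bp1, a binding protein, was at 21.6 and 18.3 FPKM. Rps4y2 was listed at 0 in 4OHT and 0.0538 FPKM in EtOH and was not tested. None of the 8 tested was called in the authors' deposited table, against 22.5% of all tested rows.

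Ribosomal protein genes lay on 19 chromosomes, with 14 of the 79 on chromosome 7 and 7 each on chromosomes 11 and 17. Only 3 pairs lay within 100 kb of each other, among them Rpl41 and Rps26, 75360 bases apart, with changes of 0.13 and 0.11 as deposited. The introns of these genes often hold small nucleolar RNAs, which guide modification of ribosomal RNA. Loci of 21 genes overlapped 31 rows of that kind. Of these rows 27 were tested, 0 were called, and 19 were lower and 8 higher in EtOH as deposited. The 21 host genes and the 56 other measured genes had the same median change, 0.07. The table gives 1 common locus to rows that overlap, so the listed locus of 31 of the genes is wider than the gene where a longer gene is part of it.

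Genes that make the ribosome, rather than form it, were lower in EtOH. Of 41 ribosome assembly factors 26, or 63.4% of those tested, fell and 0 rose, against 10.5% of the table that fell, and the median change was -0.47. Under the 3 other scalings this median lay between -0.40 and -0.58. Utp20, Rrp9, Gnl3 and Nop2, which act in the nucleolus on early particles, fell the most among those called, with changes of -0.74, -0.72, -0.68 and -0.66. Of 13 chaperones and importins of ribosomal proteins 5 fell, or 38.5% of those tested against 10.5% of the table, with a median of -0.32. Grwd1, a chaperone that accompanies Rpl3, went from 15.2 to 7.55 FPKM (-0.93), and the importin Ipo4 from 10.2 to 5.73 (-0.74). Heatr3, which carries Rpl5 into the nucleus, changed by -0.53, and so did Tsr2, the chaperone of Rps26. The clients Rpl3, Rpl5, Rpl11 and Rps26 were not called, at changes of -0.15, 0.03, 0.01 and 0.11. That these groups differed from the ribosomal proteins was not tested as such; the counts and medians stand side by side.

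**Figure D5:**
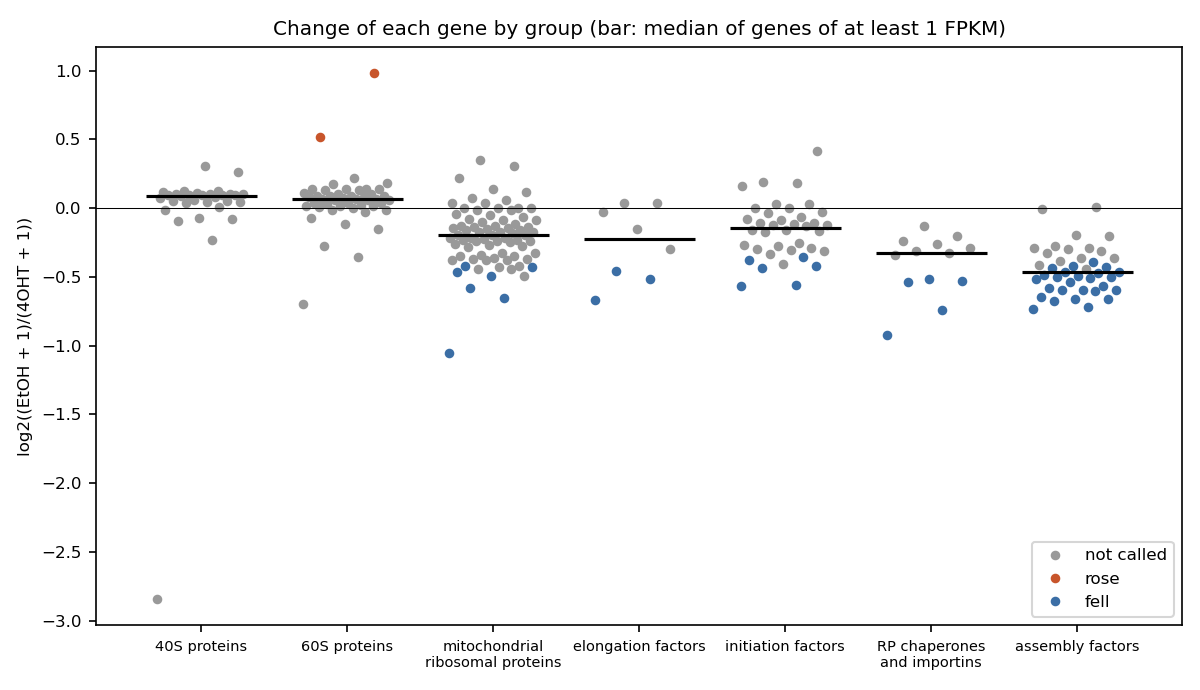
Log2 change of each gene of at least 1 FPKM (points; colour marks genes that rose or fell in the authors' deposited table, grey those not called) by group, with the median as a bar. The medians are 0.09 and 0.07 for 40S and 60S genes as deposited, which turn negative with equal FPKM sums, and between -0.14 and -0.47 for the other groups.

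Of 76 mitochondrial ribosomal protein genes, which serve the separate ribosome of that organelle, 7 fell and 0 rose. That is 9.21% of those tested, near the 10.5% of the table, with a median of -0.20. Mrpl52 had the largest decline, from 89.0 to 42.3 FPKM (-1.06). Among genes listed by symbol as translation factors, 84.2% of initiation and 75% of elongation factors were lower as deposited, beside 57.1% of all rows. Of 38 initiation factors 6 fell, or 15.8% of those tested against 10.5% of the table, and 0 rose, with a median of -0.14. Of 8 genes tested in the elongation list 3 fell, or 37.5% against 10.5% of the table, and 0 rose, with a median of -0.22. The 3 were Eef1g, Eif5a2, at only 2.37 and 1.46 FPKM, and Eef1e1, listed by its symbol alone, at 59.5 and 37.1. The elongation factors Eef1a1, Eef1b2 and Eef2 were not called, at changes of -0.03, 0.04 and 0.03. With equal FPKM sums, which moved all rows down as given above, the medians were -0.26 for initiation factors, -0.34 for elongation factors and -0.31 for mitochondrial ribosomal proteins. With the median ratio of rows of at least 5 FPKM set to 1 they were -0.08, -0.16 and -0.13. Eif1a fell from 58.9 to 39.4 FPKM (-0.57) and Eif3b from 103 to 76.0 (-0.43). Eef1g, a subunit of the exchange factor and itself a TOP messenger, fell from 662 to 464 FPKM (-0.51). Over 19 other TOP messengers, a list that shares members with those factors, 1 rose and 1 fell. Each count is 5.26% of those tested, below the 12% that rose and 10.5% that fell over all tested rows. The one that rose was Vim, the intermediate filament vimentin, from 128 to 202 FPKM (0.66).

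Among 18 regulators of TOP messengers and ribosomal protein genes 1 rose and 2 fell, which is 5.56% and 11.1% of those tested, beside 12% and 10.5% of all tested rows, and so near or below the table's shares. Mycn, a Myc family factor, rose from 1.76 to 4.92 FPKM (1.10), while Cnbp, which binds TOP messengers, fell from 236 to 168 (-0.49) and Larp4 from 25.8 to 18.8 (-0.44). Myc, an activator of ribosome production, was at 146 and 113 FPKM (-0.37), listed at q = 0.136 in the authors' deposited table. Larp1 was at 45.4 and 36 FPKM (-0.33) and Mtor at 6.07 and 5.27 (-0.17), and neither passed. RNA levels give no measure of how TOP messengers were translated.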

How the data were processed

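RNA sequencing gave 2 samples, 4OHT and EtOH, each of 2 biological replicates. Per the submitters' processing notes, the tools were Bowtie2 2.0.0.7, Cuffdiff 2.0.2 and CASAVA 1.8.2, and the build was mm9; annotation, strand, scaling and the combination of replicates are not stated in the sources used here. Per the file headers, the authors deposited 1 FPKM per condition and a p-value and q-value of their comparison. These were used unchanged, and no test of this work was possible with 1 value per condition. FPKM gives no read totals. Single-exon odorant receptor rows showed a repeated lowest step in 4OHT, from which 1 FPKM of a 1 kb transcript is about 41.6 fragments, a rough hint only.

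Computed here (Python 3.11.15, pandas 2.3.3) were log2 changes with a pseudocount of 1, counts and medians over genes that reached 1 FPKM, shares of 50-base words of RefSeq-paired GENCODE M21 transcripts found in other genes, and words in RefSeq start windows (GRCm38.p6). Locus starts are counted from 1. Steps were tested on simulated data. Genes were named by rule: called genes, the highest and lowest, stalk and disease genes, paralogues with their parents, untested genes, those beside the threshold, and up to 4 called per other list. Other members named, the comparison with other rows of at least 500 FPKM, the 0.2 limit, the RefSeq pairing of transcripts for the shared words, the TATA word TATAAA, the run within 5 bases and the summed loci were chosen after values were seen. The genes and lists were chosen with earlier results of these data known. Alternatives were other pseudocounts, filters, scalings and call thresholds. Protein sequences were not used here. Values of some single genes are not reported here.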

Additional observations from a re-analysis of the deposited data

How the results depend on the processing

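The count of 2 genes that rose became 0 at a q-value of at most 0.01. It became 1 with a ratio of at least 1.5 (Rpl3l) and 1 among genes sharing at most 10% of their words (Rpl3l). The count of 0 that fell became 1, Rpl21, at an unadjusted p of at most 0.05. The median change of 0.07 turned to -0.045 with equal FPKM sums. It was 0.14 with the median ratio of rows of at least 5 FPKM set to 1. The share of genes lower in EtOH, 20.8%, was 79.2% with equal sums. The scaling itself makes these shifts. Other settings kept the median between 0.07 and 0.10, including summed rows of a locus for Rps27, Rpl26 and Rpl30 (0.08), which was added after seeing the data. Of 19 named genes, 7 changed sign with equal sums, 1 with each other scaling and 0 with either pseudocount; Rplp1 and Rpl3l were not among them. No paired analysis was possible because each condition has 1 value. With FPKM alone, the precision of single values is unknown.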
